A study of Mus musculus with 8 samples.

Results

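The islands described here are stretches of the mouse genome that gathered anti-Brdt ChIP-seq reads above a control in wild-type spermatocytes and shared no base with an island of any of the 3 other anti-Brdt lists of the study. They were sought on chromosomes 2 to 13 and 15 to 19 of the mm9 build, where the wild-type spermatocyte list held 22484 islands. Of these, 6377 met no other list, which is 28.4% (exact 95% binomial interval 27.8 to 29.0%), and they are called private below. They were chosen by the coordinates of the called islands in all 4 lists, so the share is a description and carries no test.

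Brdt is the testis member of the BET family, proteins whose bromodomains bind acetylated lysines on histone tails. It is made in meiotic and post-meiotic male germ cells, where it takes part in the expression of meiotic and later genes and in the compaction of acetylated chromatin as histones are replaced. Its first bromodomain, BD1, binds histone H4 acetylated at neighbouring lysines, and mice without it form abnormal spermatids and are sterile.

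Chromatin came from spermatocytes, which are in meiosis, and from round spermatids, the haploid cells that follow, and both cell types were enriched by sedimentation through a BSA gradient. The groups used, all from adult mice, were anti-Brdt ChIP of wild-type C57BL/6 spermatocytes, set against the same ChIP of wild-type C57BL/6 round spermatids and of both cell types of Brdt BD1del mice. The BD1del mice carry a deletion of the first bromodomain, and their strain was not given in the sources used here. For the wild type, 10 mice were pooled and chromatin was cut with MNase to fragments of about 200 bp, so the fractions are enriched pools rather than single animals. Each group had 1 ChIP library and 1 input library, 8 in all, so no difference below has a replicate error or a test between groups. The islands carry no expression values, so the labelled cell types could not be checked against marker genes.

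On the chromosomes used, the islands of wild-type spermatocytes held 3147476 ChIP and 3156090 control reads. The islands of wild-type round spermatids, BD1del spermatocytes and BD1del round spermatids held 2873055, 4461473 and 5375414 ChIP reads. Those lists numbered 55299, 88738 and 163246 islands. The ChIP library was 0.559 times as deep as its control in wild-type spermatocytes, against 0.264, 0.177 and 0.184 times for the other 3 lists in the same order. The wild-type and BD1del lists also name different read sets of the paired-end runs, so genotype and read set cannot be told apart. All folds are the authors' ratio of ChIP reads to control reads scaled by library size. Intervals of shares and of folds cover counting error only.

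The private islands were many but light. They made up 28.4% of the islands, covered 13.7 Mb or 24.5% of the bases of the list, and held 16.8% of its ChIP reads (529051) and 16.7% of its control reads (526566). The read totals include islands that met another list and held up to 452237 ChIP or 359691 control reads each. The low private share of reads thus rests in part on such islands. The other 16107 islands of the list met at least 1 other list. The most frequent partner was the other wild-type stage: 6168 islands (27.4%) met wild-type round spermatids alone. Another 1232 (5.48%) met BD1del spermatocytes alone and 1843 (8.20%) met BD1del round spermatids alone. Islands that met all 3 other lists numbered 2441 (10.9%).

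The same rule applied to each other list gave larger private shares, in the order of list length. It left 55.5% of wild-type round spermatid islands, 73.2% of BD1del spermatocyte islands and 81.9% of BD1del round spermatid islands without a partner. Wild-type spermatocytes thus had the shortest list and the smallest private share. List length, depth, stage, genotype and read set all differ among these lists and cannot be told apart.

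A typical private island was about 1.8 kb long and stood less than 2-fold above control. Lengths had a median of 1800 bases in private islands (quartiles 1000 and 3000), against 2200 (1200 and 3600) in islands that met another list. The longest private island spanned 15000 bases, whereas the longest island with a partner spanned 148800. Of the private islands 5.14% (4.61 to 5.71%) were at least 5000 bases long, against 11.6% (11.1 to 12.1%) of the islands with a partner. Long islands offer more bases to meet, and the part of this in the difference was not tested. By length, 29.8% of islands of 200 to 600 bases were private, 31.0% from 800 to 1400 and 32.6% from 1600 to 2400. The share was 28.1% from 2600 to 4000 bases and 17.3% from 4200 upward. The difference in median length was gone with a fold of at least 2 in every list, when both medians were 1200 bases. It was also gone with each list held to its 10000 smallest p-values, when both were 1800. Where at least 50% of an island had to be covered by a single other list, private islands were the longer ones, at 2400 bases against 1800. Single windows of 200 bases were rare in both sets, at 3.51% of private islands and 3.17% of islands with a partner.

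ChIP reads per private island ranged from 26 to 2854, with a median of 70 and quartiles of 53 and 93, against a median of 87 in islands with a partner. Control reads had medians of 65 in private islands and 86 in the rest. Per kb, the private islands held a median of 35.5 control reads, fewer than the 41.5 of islands with a partner. Regions crowded with control reads were also rarer: at least 100 control reads per kb were found in 3.39% (2.96 to 3.86%) of private islands and in 9.08% (8.64 to 9.53%) of the others. The private islands were thus neither longer nor more crowded in the control library than the rest of their list.

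Folds were slightly higher in private islands. The median deposited fold was 1.83 (quartiles 1.53 and 2.66), against 1.73 (1.49 and 2.27) in islands with a partner, and the private median was the higher one on all 17 chromosomes. A fold of at least 2 was reached by 2636 private islands, 41.3% (40.1 to 42.6%), where 36.0% of all islands of the list reached it. A fold of at least 10 was reached by 208 private islands, 3.26% (2.84 to 3.73%), against 2.10% of the whole list. By the deposited FDR there was no such gain: 1658 private islands (26.0%) had an FDR of at most 1e-10, where 26.9% of all islands did. The order of the median folds rests on how lists and partners are defined: with 10000 islands of lowest p per list the difference, private minus the rest, was -0.0555.

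**Figure D1:**
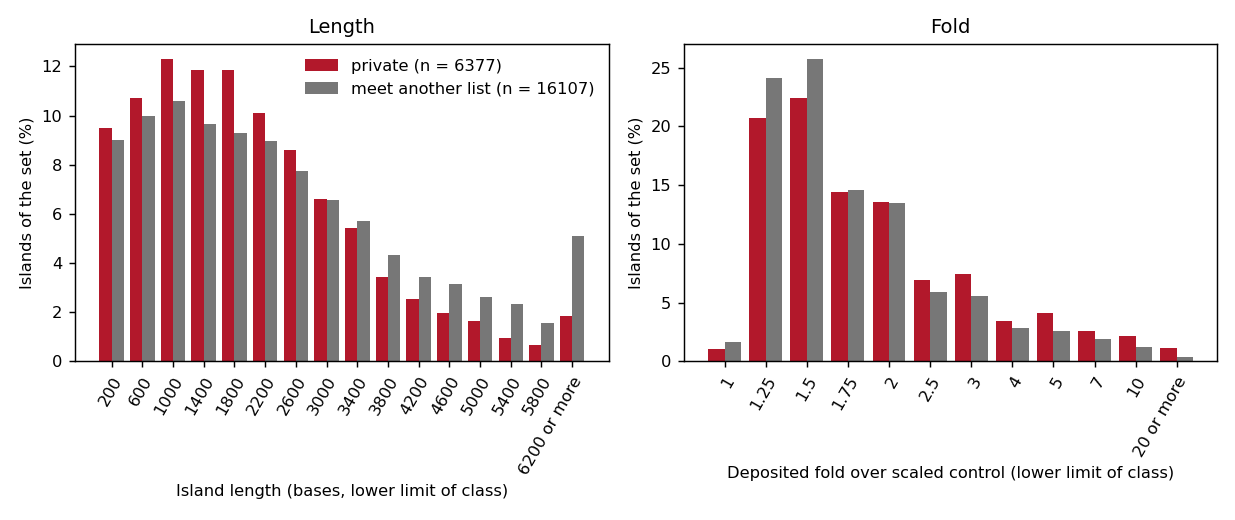
Length (left, in bases) and deposited fold over scaled control (right) of private islands and of islands that meet another list, each bar giving the percent of its own set in a class. Private islands are the less frequent from 3400 bases upward and the more frequent from a fold of 2 upward.

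In fold and control reads, private islands lay close to those that met a single BD1del list and nothing else. Median folds were 1.83 in private islands, 1.88 in islands that met BD1del spermatocytes alone and 1.86 in islands that met BD1del round spermatids alone, against 1.73 in islands that met wild-type round spermatids alone. Control reads per kb grouped likewise, with medians of 35.5 in private islands, 34.4 and 34.2 in the islands with a single BD1del partner, and 41.8 in islands shared by the wild-type stages alone. The 735 islands that met both BD1del lists alone were longer, at a median of 2600 bases against 1800 in private islands, with a fold of 1.72 and 37.3 control reads per kb. An FDR of at most 1e-10 was reached by 26.0% of private islands, against 33.6% (31.0 to 36.3%) of islands that met BD1del spermatocytes alone and 31.8% (29.7 to 33.98%) of those that met BD1del round spermatids alone. Islands that met all 3 other lists stood at the far end, with a median length of 2600 bases, 124 ChIP reads, 50.6 control reads per kb and a fold of 1.64. With islands pooled by their number of partners, median length and reads rose with that number and median fold fell. Fold did not follow the number of partners in every set, since islands with a single BD1del partner had higher median folds than private islands. A fold of at least 2 was reached by 35.4% of islands with 1 partner and by 36.4% of those with 2.

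The private share rose with fold among the shortest islands and fell with fold among long ones. Over all lengths, 25.2% (24.0 to 26.3%) of islands with a fold under 1.5 were private, and the share rose class by class to 44.1% (39.5 to 48.7%) of the 472 islands with a fold of 10 or more. In the class of 200 to 600 bases, the share was 14.1% (7.74 to 23.0%) at a fold under 1.5 and 47.7% (42.0 to 53.5%) at a fold of 10 or more. From 800 to 1400 bases the share peaked at 41.6% (36.6 to 46.7%) between folds of 5 and 10, and from 1600 to 2400 bases at 38.7% (34.2 to 43.3%) between 3 and 5. From 2600 to 4000 bases it ran the other way, at 30.4% (28.4 to 32.5%) under a fold of 1.5, against 22.6% (17.6 to 28.2%) between 3 and 5 and 6 of 50 islands (4.53 to 24.3%) between 5 and 10. Islands of 4200 bases or more were private in 17.3% (16.1 to 18.6%) of cases, the lowest share of any length class. Long islands of high fold therefore mostly had a partner, while islands of 200 to 600 bases with a fold of 10 or more were private in almost every second case.

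**Figure D2:**
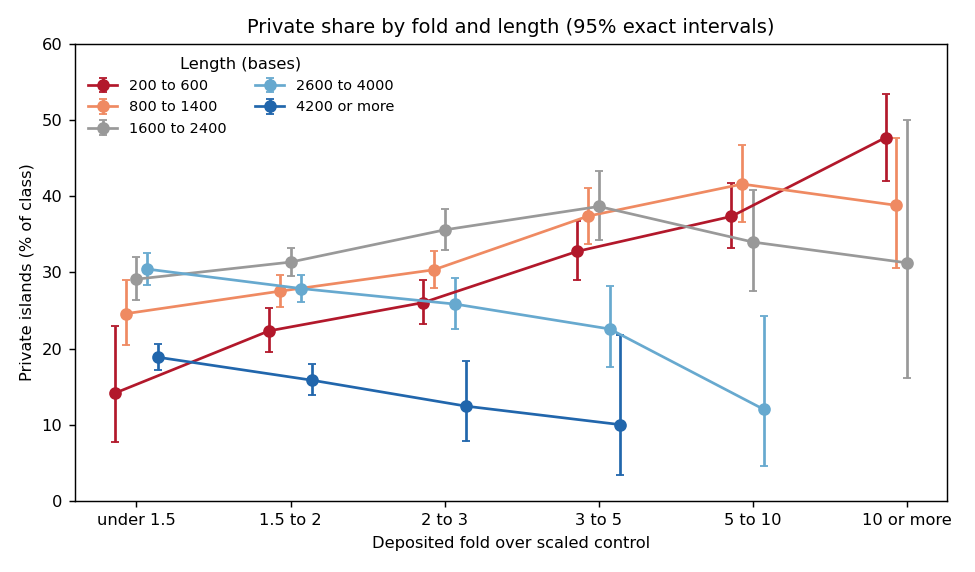
Percent of wild-type spermatocyte islands that are private, by class of deposited fold (horizontal) and island length (colours), with exact 95% intervals; classes of under 20 islands are not drawn. The class of 200 to 600 bases rises to 47.7% at a fold of 10 or more, and the classes from 2600 bases upward fall. The classes of 800 to 1400 and 1600 to 2400 bases are highest at 41.6% and 38.7%, with overlapping intervals at higher folds.

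The counts behind high folds were small. The 208 private islands with a fold of at least 10 had a median length of 400 bases and a median of 45 ChIP and 5 control reads. Of these, 186 had under 10 control reads. They lay on all 17 chromosomes. Of the private islands of a chromosome they made up from 1.65% on chromosome 3 (8 of 485) to 5.71% on chromosome 7 (27 of 473), against 3.26% of all private islands. At the low end, 1393 private islands had a fold under 1.5, and these had a median length of 3200 bases with 98 ChIP and 127 control reads. Between these ends lay the largest class, 2348 private islands with a fold of 1.5 to 2, a median length of 2200 bases and 76 control reads. Length and control reads thus fell from class to class as fold rose.

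Among private islands with at least 10 control reads, the highest fold belonged to chr15:99222801-99224600, 1800 bases with 108 ChIP and 11 control reads, at 17.6 (counting interval 9.43 to 36.2). A BD1del round spermatid island lay 800 bases away, a BD1del spermatocyte island 2800 bases away and a wild-type round spermatid island 18000 bases away. The next was chr7:29884001-29884600, with 87 ChIP and 10 control reads and a fold of 15.6 (8.07 to 33.6). Its nearest island in any other list was 6800 bases away. The third, chr15:6849401-6849800, held 124 ChIP and 16 control reads in 400 bases, a fold of 13.9 (8.21 to 25.01), and lay 8000 bases from the nearest other island. The counting intervals of these 3 overlap, so their order is not settled by the reads.

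The other 7 of the leading 10 had folds of 12.03 to 13.06 over 10 to 15 control reads. Chromosome 18 held 2 of them, chr18:37803201-37804400 and chr18:34783201-34785000, with 73 and 84 ChIP reads. On chromosome 15 a further island, chr15:102235001-102236600, held 101 ChIP and 15 control reads at a fold of 12.04 (6.97 to 22.3). It had islands of all 3 other lists close by, at 1400 bases for wild-type round spermatids and at 1200 and 800 bases for BD1del spermatocytes and round spermatids. These neighbours lie nearer than the island's own length of 1600 bases.

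Ranked by the deposited p-value, the leading private island was chr3:107136001-107136800, with 142 ChIP and 5 control reads and a fold of 50.8 (21.3 to 158.9). The second, chr2:144567601-144568200, held 133 ChIP and 6 control reads at 39.7 (17.7 to 110.0) and lay 6200 bases from any other list. The third, chr8:59990401-59990800, held 66 ChIP reads and no control read. Its deposited fold assumes 0.25 control reads. Against 3 control reads, the limit that a count of 0 allows, the ratio was 39.4, and the lower end of the counting interval used for the other folds was 31.1. Private islands without any control read numbered 5, all of 200 to 400 bases and with 26 to 66 ChIP reads. The fifth by p was of another kind: chr18:6157001-6159800 spanned 2800 bases with 397 ChIP and 147 control reads, a fold of 4.83 (3.99 to 5.88), and lay 7000 bases from the nearest other island.

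The longest private islands were weak. The first, chr2:175937601-175952600, spanned 15000 bases with 517 ChIP and 759 control reads, a fold of 1.22 (1.09 to 1.36). A wild-type round spermatid island lay 1000 bases from it, while the nearest BD1del islands were 287.0 kb away in spermatocytes and 39.4 kb away in round spermatids. On the same chromosome chr2:176621401-176636400, of the same length, had 491 ChIP and 779 control reads and a fold of 1.13 (1.005 to 1.26), whose interval reaches almost to no enrichment. The third, chr4:60371401-60384000, spanned 12.6 kb at a fold of 1.15 (1.02 to 1.28), with a wild-type round spermatid island 2200 bases away. In all, 7 private islands (0.110%) reached 10 kb, against 137 (0.851%) of the islands with a partner.

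The private islands with most ChIP reads were those with most control reads. The first, chr2:27349601-27359800, held 2854 ChIP and 4312 control reads, which is 422.7 control reads per kb, at a fold of 1.18 (1.13 to 1.24). The second, chr18:7318801-7326800, held 2771 ChIP and 3609 control reads at a fold of 1.37 (1.31 to 1.44). All 5 islands of this kind had folds between 1.17 and 1.42 and more than 100 control reads per kb. Only 21 private islands had at least 200 control reads per kb (0.329%), against 467 (2.90%) of the islands with a partner. The part of piled-up control reads in these islands was not tested.

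**Figure D3:**
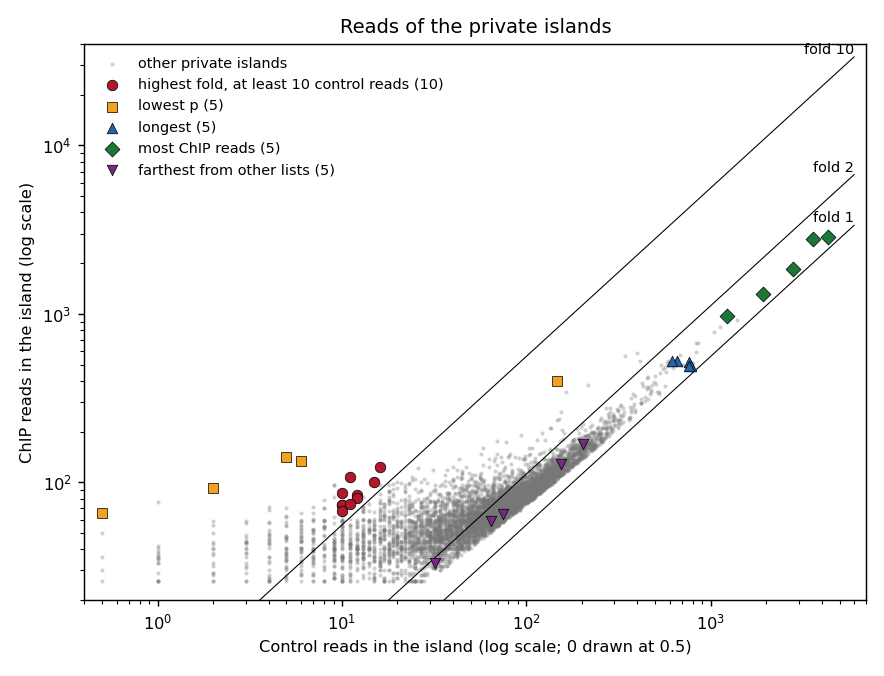
ChIP reads against control reads of each private island on log axes (a count of 0 is drawn at 0.5), with lines at folds of 1, 2 and 10 and the islands named by rank in colour. The longest islands and those with most reads lie between the lines of fold 1 and 2, and the islands of lowest p lie at 0 to 6 control reads except for 1 with 147.

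Most private islands had an island of another list within a few kb. The other lists held 55299, 88738 and 163246 islands on these chromosomes, so short distances are common wherever one looks. Distances from arbitrary positions were not measured, so closeness is not shown to be a trait of private islands. The nearest island of any other list lay at a median of 2200 bases (quartiles 1000 and 4600), and 78.4% of private islands had one within 5000 bases. Only 325 (5.10%) had none within 10000 bases. To each list separately the median distance was 11200 bases for wild-type round spermatids, 8000 for BD1del spermatocytes and 4600 for BD1del round spermatids, the reverse of the order of list length. Within 600 bases, the gap across which windows of one list are joined into an island, 1035 private islands (16.2%) had a neighbour of another list. These lay as close to another list as windows of a single island may lie to each other.

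These distances were hardly different from those of islands that had a partner elsewhere. To wild-type round spermatids, the median distance was 11200 bases for private islands and 10600 bases for the 3810 islands that missed this list but met another. To BD1del spermatocytes it was 8000 bases for both private islands and the 10466 such islands. To BD1del round spermatids it was 4600 bases for private islands and 4400 bases for the 8633 such islands. An island of wild-type round spermatids lay within 10000 bases of 47.0% of private islands and of 48.6% of the islands met elsewhere. For BD1del spermatocytes these shares were 58.2% of private islands and 58.4% of the others, and for BD1del round spermatids 79.6% and 78.7%. Private islands were thus spaced from each list much as any island that missed it.

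**Figure D4:**
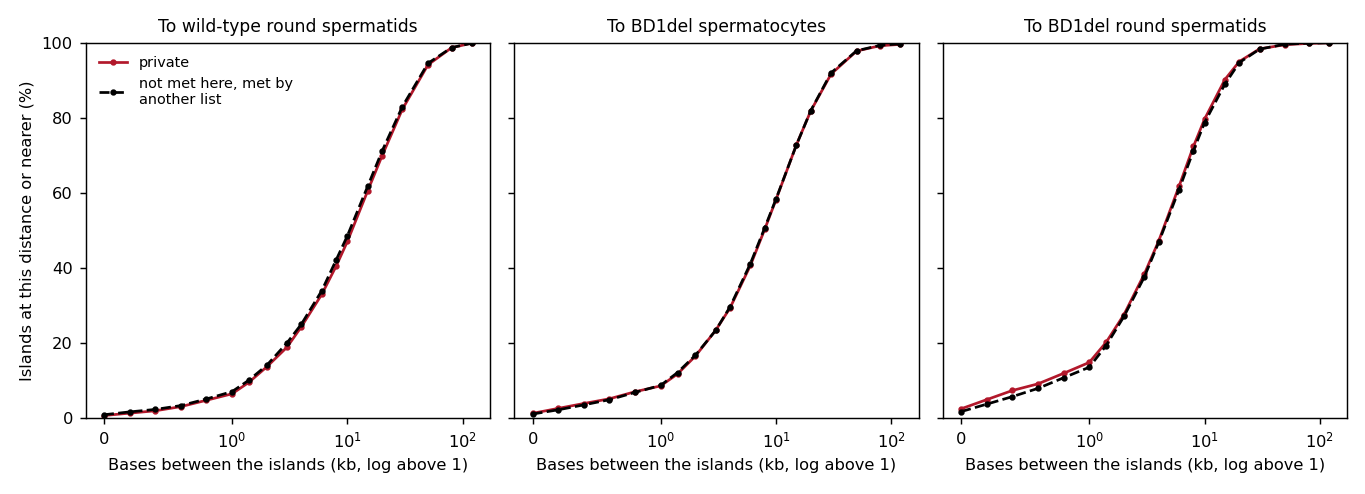
Percent of islands with an island of the named list at the given distance or nearer (kb, linear to 1 and logarithmic above), for private islands and for wild-type spermatocyte islands that miss this list but meet another. The paired curves run together, and the medians differ by at most 600 bases.

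Which list came nearest ran with how many islands each list has. BD1del round spermatids gave the nearest island to 3141 private islands (49.3%) and make up 53.1% of the islands of the 3 lists. BD1del spermatocytes were nearest to 1715 (26.9%, with 28.9% of the islands) and wild-type round spermatids to 1347 (21.1%, with 18.0% of the islands). Lists tied for 174 (2.73%). The wild-type round spermatid neighbours had a median length of 1600 bases and a median fold of 2.54, where that list as a whole had 1400 bases and 2.91. The neighbours from both BD1del lists had the same median lengths as their lists, 1200 and 400 bases.

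Nearer private islands had the higher folds. The 1035 islands within 600 bases of another list had a median fold of 1.93, and 45.6% of them had a fold of at least 2. The median fell to 1.84 from 600 to 5000 bases, 1.79 from 5000 to 10000 bases and 1.67 beyond 10000 bases, where 31.4% of the islands had a fold of at least 2. Median lengths were 2000, 1800, 2000 and 2200 bases in these classes, and median control reads per kb 34.5, 35.5, 36.0 and 36.9. The most remote islands were therefore the weakest, although the classes held similar ChIP reads, with medians of 70 to 76.

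The most remote private island was chr8:22412401-22416800, 35000 bases from any other list, with 128 ChIP and 155 control reads and a fold of 1.48 (1.16 to 1.88). Next came chr12:23865601-23865800, a single window with 59 ChIP and 64 control reads, 33.8 kb from the nearest wild-type round spermatid island, with BD1del islands 186.8 kb away in spermatocytes and 81.8 kb away in round spermatids. Its control density of 320 reads per kb was far above the private median. The other 3 of the 5 most remote islands lay 29.0 to 31.0 kb from any other and had folds of 1.48 to 1.84. All 5 had folds under 2.

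At the edge of the rule, 276 private islands abutted an island of another list with no base between them, and 267 were separated by 200 bases, the smallest step of the windows. The abutting island of highest fold was chr8:74743401-74743600, a single window with 42 ChIP reads and 1 control read, at 75.1 (12.8 to 3037), next to a BD1del spermatocyte island. Just outside the rule stood islands that shared a single window of 200 bases with 1 other list. One of these, chr3:28308201-28308400, held 51 ChIP reads and no control read and shared its whole length with a wild-type round spermatid island. Another, chr5:142843201-142843600, had 50 ChIP reads and 1 control read and shared 200 of its 400 bases with a BD1del round spermatid island. These were named for their high fold, so their form does not stand for all islands at the edge.

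Absence from another list was not absence of reads, which the lists do not give outside their own islands. Calling limits also differed. Of the wild-type spermatocyte islands 55.3% had a fold at or below the private median of 1.83, against 12.8% of wild-type round spermatid islands. The same share was 3.03% of BD1del spermatocyte islands and 0.556% of BD1del round spermatid islands. Folds of this size were thus seldom called in the BD1del lists. For weak private islands a limit of calling and lower Brdt binding cannot be told apart.

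Private islands were spread over the genome more evenly than the list they came from. They numbered 2.51 per Mb on chromosome 9, the lowest, and 4.18 per Mb on chromosome 18, the highest, with 3.04 per Mb over all 17 chromosomes. All wild-type spermatocyte islands together ranged more widely, from 8.02 per Mb on chromosome 8 to 18.7 per Mb on chromosome 19. In chromosome order the list thinned out from 12.9 per Mb on chromosome 2 to 8.02 on chromosome 8, and thickened again from 8.09 on chromosome 11 to 14.8 on chromosome 18 and 18.7 on chromosome 19. The cause of this order was not tested.

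The private share therefore varied between chromosomes. It was lowest on chromosome 2, at 20.2% (18.6 to 21.9%), chromosome 19, at 21.8% (19.4 to 24.4%), and chromosome 3, at 24.1% (22.2 to 26.0%). It was highest on chromosome 8, at 35.7% (32.7 to 38.7%), and chromosome 13, at 33.7% (31.0 to 36.5%). The counting interval lay wholly above 28.4% on 8 chromosomes and wholly below it on 3. Across the 17 chromosomes the private share had a Spearman correlation of -0.875 with the share of the chromosome that islands of the other 3 lists cover, which was 11.9% on chromosome 8 and 15.8% on chromosomes 2 and 19. With the wild-type spermatocyte islands per Mb the correlation of the private share was similar, at -0.853. The points share the same 4 libraries, and cover by the other lists enters the rule, so both values are descriptions only.

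**Figure D5:**
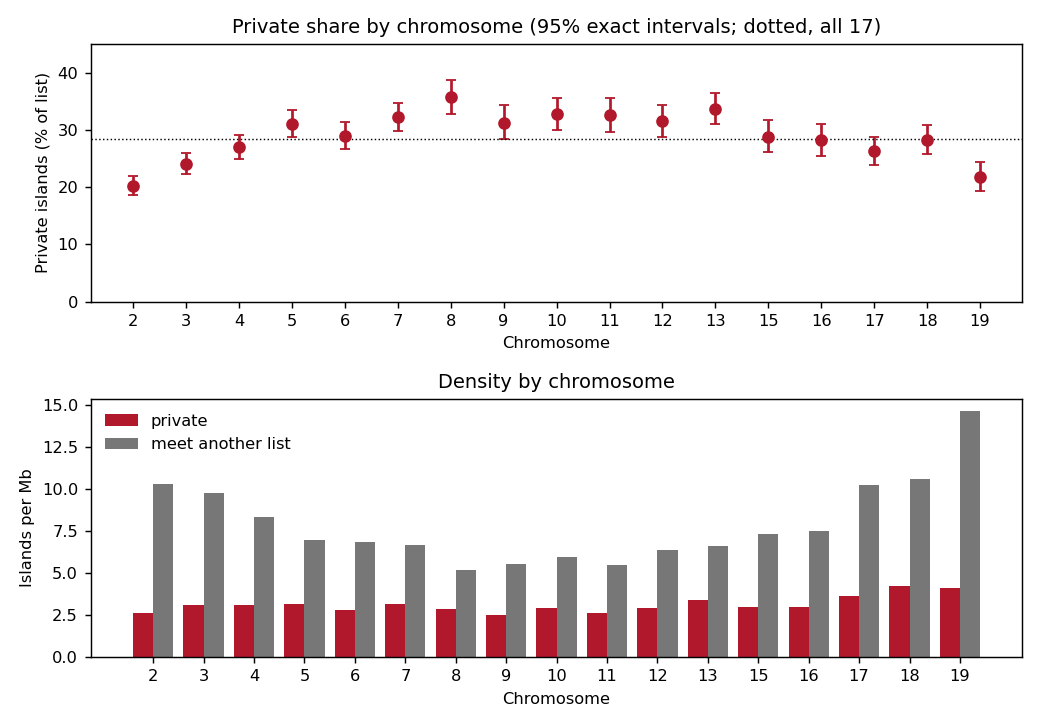
Top, percent of wild-type spermatocyte islands that are private on each chromosome with exact 95% intervals, the dotted line marking all 17 chromosomes; bottom, private islands and islands that meet another list per Mb. Private islands stay between 2.51 and 4.18 per Mb, while the islands with a partner are densest on chromosome 19.

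The form of private islands changed little between chromosomes. Median lengths ran from 1600 to 2200 bases, median folds from 1.76 on chromosome 18 to 2.05 on chromosome 11, and median distances to the nearest other island from 2000 to 2600 bases. Private islands were shorter in the median than islands with a partner on 12 of the 17 chromosomes. In the first 5 Mb of the chromosome spans, next to the centromeres, 30.9% (28.1 to 33.8%) of islands were private, against 25.3% (23.2 to 27.6%) in the last 5 Mb and 28.5% (27.8 to 29.1%) between. Per Mb, private islands were densest in the last 5 Mb, at 4.56, against 3.74 in the first 5 Mb and 2.94 between.

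Private islands were scattered among islands with partners, mostly in short runs. At a private share of 28.4%, short runs are also common in a random order, and no such order was simulated. Of 4461 unbroken runs of private islands along the chromosomes, 3115 held a single one, so 3115 of the 6377 private islands had an island with a partner, or the chromosome's end, as next neighbour on both sides, and 43 runs held 5 or more, with 235 islands in all. The longest run held 8, on chr13:45964201-47589000, with folds from 1.52 to 8.41. A tighter run of 7 lay within 0.161 Mb, chr2:176565801-176726800, with a median length of 4400 bases and a median fold of 1.29. Private islands occurred in 1943 of the 2099 bins of 1 Mb that held any island of the list, with a median of 3 per bin, and 23 bins held 10 or more.

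The 3 fullest bins held long and weak private islands. On chromosome 4 from 42 to 43 Mb, 19 of 50 islands were private, with a median length of 3400 bases and a median fold of 1.51. Wild-type spermatocyte islands covered 31.0% of this bin and wild-type round spermatid islands 16.0%, whereas BD1del spermatocyte islands covered 2.90% and BD1del round spermatid islands 5.82%. On chromosome 13 from 65 to 66 Mb, 18 of 38 islands were private, with a median fold of 1.59. Wild-type spermatocyte and round spermatid islands covered 17.6% and 11.5% of it, and BD1del ones 4.68% and 5.54%. On chromosome 2 from 175 to 176 Mb, 16 of 29 islands were private, with a median length of 3600 bases and folds of 1.22 to 1.71. There the BD1del lists covered 0.560% and 0.520% of the bin, in spermatocytes and round spermatids. Wild-type spermatocytes and wild-type round spermatids covered 12.8% and 8.56%. The next fullest bin, chromosome 13 from 66 to 67 Mb with 14 private islands, differed. BD1del islands covered 10.3% and 12.6% of it in the same order, and wild-type round spermatid islands 9.54%. Bins were ranked by islands that meet no other list, so low cover by the other lists is partly built in. Private islands of the 3 fullest bins had median folds of 1.40 to 1.59. Folds at or below 1.83 made up 12.8% of wild-type round spermatid islands, but 3.03% and 0.556% of BD1del spermatocyte and round spermatid islands. In these bins genotype, read set and limits of calling cannot be told apart. The 23 bins with 10 or more private islands also included bins of short ones, such as chromosome 19 from 58 to 59 Mb, with 11 private islands of a median length of 800 bases and a median fold of 2.04. On chromosome 3 from 96 to 97 Mb, 10 of 19 islands were private with a median fold of 3.58 and a highest fold of 29.2.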

How the data were processed

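Per the submitters' processing notes, islands were called with SICER on mm9; names of the lists give windows of 200 and gaps of 600 bases. Not given in the sources used here are the SICER version, aligner, read filters and the input behind each list. ChIP and control counts, as the authors deposited them, are raw whole reads per island. After scaling by library size, the deposited p-value and FDR compare both counts, and the deposited fold is their ratio. Coordinates were written 1-based. An island was private when it shared no base with an island of the other 3 lists; distances count the bases between islands. Overlap and distance counting was checked on simulated lists. The ratio of library sizes came from counts and folds. Intervals of shares are exact (Clopper-Pearson) at 95%, and those of folds come from the exact binomial interval of ChIP among all reads. Python 3.11.15, pandas 2.3.3 and SciPy 1.17.1 were used.

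With 1 library per group no test was made. The rule for islands and the lists were chosen with earlier results of these data known. Islands named were the 10 highest folds over at least 10 control reads, the 5 longest, the 5 with most ChIP reads, the 5 of lowest p, the 5 most remote and 3 on each side of the rule's edge; the leading ones are printed. Runs and bins of 1 Mb were added later. Genes and sequences at the islands were not analysed here, since no mm9 annotation was at hand.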

Additional observations from a re-analysis of the deposited data

How the results depend on the processing

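No paired analysis was possible because each group had 1 library. The private share, 28.4% as reported, was 44.7% with an FDR of at most 1e-10 in every list, 36.6% with a fold of at least 2, 29.1% with at least 10 control reads, 78.4% with 10000 islands of lowest p per list, 29.6% without the 1% of islands densest in control reads, 49.7% when at least 50% of an island had to be covered, and 20.8% when an island within 1000 bases counted as met. The median private length moved to 1400 bases (FDR), 1200 bases (fold) and 2400 bases (50% covered), from 1800. The median private fold moved from 1.83 to 3.49 (FDR), 2.86 (fold), 1.81 (10 control reads), 2.47 (10000 islands), 1.76 (50% covered) and 1.81 (within 1000 bases). The median distance to another list moved from 2200 bases to 3000 (FDR), 2800 (10 control reads), 24600 (10000 islands), 400 (50% covered) and 3400 (within 1000 bases). With 50% required, private islands include some that overlap another list, with no bases between. The 400 bases are therefore not comparable with the other distances. Shorter lists leave fewer islands to meet, and a long island needs more shared bases to reach 50%, counted in 1 other list at a time. The part of either in these shifts was not tested. With 50% required, private islands were 600 bases longer in the median than the others. The difference in median fold, private minus the rest, was then -0.00106. With 10000 islands per list this difference was -0.0555; the cause was not tested. The comparisons of private with other islands under these settings were chosen after seeing the data. Merging islands within 1000 bases and leaving out the 4 bins of 1 Mb covered to at least 20% moved none of these values beyond their counting interval; no fold was computed for merged islands. The part of depth in which weak islands the other lists called was not tested.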

Other observations

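Islands of wild-type spermatocytes without a partner were also counted on the chromosomes outside the rule. Chromosome 1 had 648 of 5552 (11.7%, interval 10.8 to 12.5%), the smallest share of any autosome, and chromosome 14 had 423 of 1495 (28.3%, 26.0 to 30.7%). Their median lengths were 1800 and 2200 bases, against 3000 and 2800 bases in islands with a partner, and their median folds were 1.77 and 1.76. Another list lay at a median of 1400 bases on chromosome 1, nearer than the 2000 to 2600 bases of the 17 chromosomes of the rule, and at 2400 bases on chromosome 14. On X, 1412 of 6786 islands (20.8%, 19.8 to 21.8%) had no partner, and these were longer than the islands with one, at medians of 2400 and 2000 bases. They also lay farther from any other list, at a median of 3600 bases, and had 39.8 control reads per kb, against 66.3 in X islands with a partner. On Y, only 14 of 298 islands (4.70%, 2.59 to 7.76%) had no partner.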
